A study of Mus musculus with 2 samples.

Results

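A group of 144 cochlear cells was described among 1975 cells of the mouse cochlea. Summed over its cells, Coch, the gene of the secreted matrix protein cochlin, was higher than in the other groups described below. The cells were chosen by their own transcripts. A member had at least 5 UMIs (unique molecular identifiers, each counting a captured transcript) of Coch, at least 3 of the 5 genes Lox, Rarres1, Foxc2, Gper1 and Col13a1, and more of these 5 genes than of each of 2 other panels of 5 genes. It is called the Lox group here. Applied with the panel Kcnk3, Nov, Sox11, Epha3 and Col23a1, the same rule gave a Kcnk3 group of 151 cells, and with the panel Hal, Tnc, Hpgds, Npy and Cxcl13 a Hal group of 54 cells. An Otos group of 118 cells held at least 4 of the genes Otos, Car3, Kcnk2, Gjb2 and Gjb6, more of them than of any other panel, and lay in none of the other groups. All cells came from cochleae of wild type C57BL/6 mice at 20 days of age, with no treatment named, in 2 libraries of single-cell RNA sequencing. Between 5 and 8 mice were used and the cells were freed with trypsin. The labels do not say that the libraries came from separate animals, so the spread between them may be technical.

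Fibrocytes are connective tissue cells of the spiral ligament and spiral limbus. They lay down the collagen and elastic matrix on which the lateral wall rests, and some of them pass potassium, taken up from the perilymph, through gap junctions towards the stria vascularis. Cochlin is among the most abundant proteins of this matrix, and mutations of its gene cause a dominant loss of hearing and balance. Of the panel genes, Lox encodes lysyl oxidase, which crosslinks collagen and elastin. Rarres1 is induced by retinoic acid, Foxc2 is a forkhead transcription factor of mesenchyme and lymphatic vessels, Gper1 is a membrane receptor for oestrogen, and Col13a1 encodes a transmembrane collagen.

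Library 1 held 1331 kept cells and library 2 held 644, from 20212520 and 7094752 UMIs. Members numbered 73 in library 1, or 5.48% of its cells (exact binomial 95% interval 4.32% to 6.85%), and 71 in library 2, or 11.02% (8.71% to 13.7%). The intervals cover counting error only. Members of library 1 were sequenced more deeply, with a median of 21815 UMIs (range 4597 to 48699) against 6477 UMIs in library 2 (3724 to 56070). Summed over members, 1562790 and 798398 UMIs were available. The libraries shared 2 barcodes, neither of them a member. Only 2 kept barcodes of library 1 and 4 of library 2 were marked as doublets, none of them a member. With so few marked, members are not cleared of mixed cells. Levels below are the summed UMIs of a gene in a group, scaled to 1000000 UMIs of that group (CPM), and are given for library 1 and then library 2. They are compared between groups and not between genes.

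On the mouse build GRCm38, the GENCODE annotation places Coch on chromosome 12 (51593341-51605771, plus strand), Rarres1 on chromosome 3 (67478972-67515523, minus strand), Foxc2 on chromosome 8 (121116171-121118895, plus strand), Gper1 on chromosome 5 (139423151-139427800, plus strand) and Col13a1 on chromosome 10 (61838236-61979108, minus strand). Col4a4 and Col4a3, described below as higher in the Lox group, lie head to head on chromosome 1, Col4a4 on the minus strand (82448423-82586849) and Col4a3 on the plus strand (82586921-82722059). The 71 bases between their starts are shown because both genes are read outward from this stretch. It is given on the plus strand from the promoter table of RefSeq (chr1:82586850-82586920, GRCm38), and 69.01% of it is G or C.

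between Col4a4 and Col4a3: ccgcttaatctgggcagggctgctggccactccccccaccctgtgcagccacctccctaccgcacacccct

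The stretches before the starts of Coch (chr12:51593091-51593340, plus strand) and Gper1 (chr5:139422929-139423150, plus strand) are shown because Coch is part of the rule and higher here than in the other 3 groups and Gper1 is the panel gene with a match to the core forkhead motif, TGTTTAC on either strand. Capitals mark that match, here as the reverse complement GTAAACA. G or C made up 74.8% of the Coch stretch and 41.4% of the Gper1 stretch.

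Coch: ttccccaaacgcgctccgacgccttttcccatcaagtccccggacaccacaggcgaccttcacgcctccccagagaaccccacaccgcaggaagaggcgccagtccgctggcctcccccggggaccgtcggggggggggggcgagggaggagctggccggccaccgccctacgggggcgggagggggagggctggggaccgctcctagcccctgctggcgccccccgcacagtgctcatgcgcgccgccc

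Gper1: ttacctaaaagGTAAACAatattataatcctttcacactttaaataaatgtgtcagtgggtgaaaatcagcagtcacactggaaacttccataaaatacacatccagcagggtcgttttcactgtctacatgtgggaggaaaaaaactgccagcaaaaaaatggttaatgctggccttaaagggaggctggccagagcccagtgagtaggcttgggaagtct

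Promoter entries were found for 4 of these genes (Coch, Rarres1, Gper1 and Col13a1), and Gper1 was the only entry among them with the motif in its 250 bases upstream. Of all 32851 promoters in the table, 3.17% held it. A match describes letters and is not evidence of binding.

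The panel genes and Coch chose the members, so their levels are a description and were not tested. Lox itself lies on chromosome 18 (52516067-52529867, minus strand). Coch stood at 10906 and 10964 CPM in the Lox group, 2698 and 2983 in the Kcnk3 group, 6021 and 5036 in the Hal group, 1696 and 2635 in the Otos group and 1419.6 and 2314 in all other cells. Both libraries gave nearly the same level in the Lox group, and the Hal group came next. Lox reached 1242 and 1278 CPM in the Lox group, 138 and 107 in the Kcnk3 group, 111 and 100.3 in the Hal group, 68.2 and 13.8 in the Otos group and 119 and 161 in all other cells. Rarres1 reached 2405 and 1867 CPM in the Lox group, 400.0 and 472 in the Kcnk3 group, 868 and 734 in the Hal group and 17.04 and 11.5 in the Otos group. The Otos group carried almost no Rarres1, and the Hal group came second. Foxc2 was rarely seen outside the members, with 87.02 and 83.9 CPM in the Lox group, 2.97 and 5.96 in the Kcnk3 group, 1.43 and 6.27 in the Hal group and 7.50 and 6.91 in the Otos group. Gper1 had 171 and 301 CPM in the Lox group, 70.7 and 102 in the Kcnk3 group, 57.1 and 116 in the Hal group and 8.18 and 6.91 in the Otos group. Col13a1 had 159 and 101 CPM in the Lox group, 60.02 and 54.6 in the Kcnk3 group, 15.7 and 25.1 in the Hal group and 8.18 and 2.30 in the Otos group. For each of these 6 genes the lower library of the Lox group lay above the higher library of every other group. For the 5 panel genes the rule itself favours this separation. For Coch it does so against the Otos group and all other cells, where no minimum of Coch UMIs was set. Genes of the other panels were not all low in members: Kcnk3, a potassium channel gene, had 330.2 and 321 CPM in the Lox group and 359 and 339 in the group that carries its name, whereas Nov had 12.8 and 5.01 CPM in the Lox group and 165 and 169 in the Kcnk3 group. Tnc, the tenascin C gene, had 1.92 and 7.52 CPM in the Lox group and 189.9 and 138 in the Hal group. Single members varied widely. Per 10000 UMIs of a cell, Lox had a median of 4.29 UMIs in library 1 (quartiles 1.70 and 20.99) and 7.48 in library 2 (1.92 and 17.9), and Coch had medians of 119 and 93.3.

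**Figure D1:**
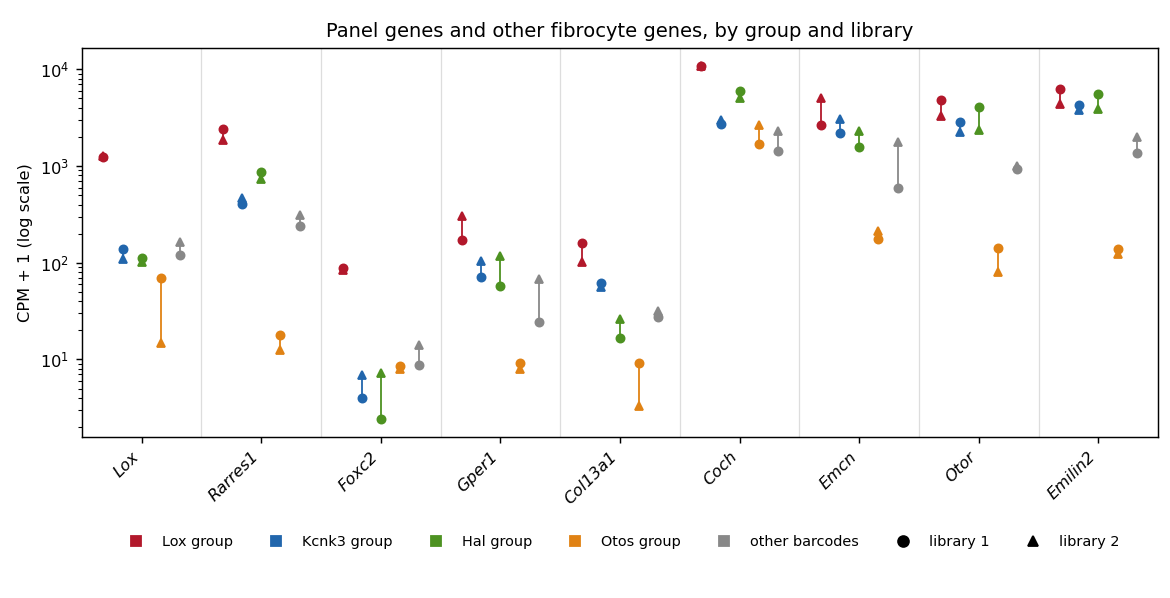
Levels of the 5 panel genes, Coch, Emcn, Otor and Emilin2 (CPM plus 1, log scale) in the Lox, Kcnk3, Hal and Otos groups and all other cells, with a circle for library 1 and a triangle for library 2 joined by a line. Coch, Lox, Rarres1, Foxc2, Gper1 and Col13a1 were highest in the Lox group in each library, while Otor and Emilin2 were close in the Lox, Kcnk3 and Hal groups and far lower in the Otos group.

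Emcn, the endothelial sialomucin endomucin and a marker used to describe these cells, is likewise given without a test. It had 2659 and 5056 CPM in the Lox group, 2199.5 and 3046 in the Kcnk3 group, 1580.3 and 2305 in the Hal group and 173 and 212 in the Otos group. Within each library the Lox group was highest, but its library 1 value lay below the library 2 value of the Kcnk3 group. After each cell was thinned to 3000 UMIs, at least 1 Foxc2 UMI was seen in 26.03% and 21.1% of members, in 1.20% and 1.47% of the Kcnk3 group, and in 0.269% and 0% of red cell barcodes (372 and 36 barcodes with at least 50% haemoglobin UMIs, median depths 10396 and 12834 UMIs), which should lack the gene. Without thinning the Foxc2 shares were 71.2% and 47.9% of members and 0.806% and 2.78% of red cell barcodes. Coch reads were more widespread: at least 1 UMI was seen in 49.2% and 27.8% of thinned red cell barcodes, with medians of 2 and 1 UMIs before thinning. Members had medians of 177 and 71 Coch UMIs, with ranges of 5 to 1118 and 5 to 681.

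Members were not alike in library 1. All 5 panel genes were seen in 40 members, 4 in 10 and 3 in 23, against 19, 29 and 23 members in library 2. The 23 members of library 1 with only 3 panel genes had 3336 CPM of Coch, 645 of Emcn and 174 of Lox, while the 50 with 4 or 5 had 13785, 3426 and 1648 CPM. In library 2 the same split gave 7877, 4031 and 804 CPM with 3 panel genes and 11779, 5327 and 1403 CPM with 4 or 5. Cells just outside the rule, with 2 panel genes, numbered 28 and 16 and had 2824 and 4881 CPM of Coch. A further 14 and 1 cells missed only the minimum of Coch, and 141 and 86 cells had 3 or more panel genes but as many or more of another panel. Of the library 1 members, 25 carried at least 2 of the 9 hair and supporting cell markers (the inner ear sensory epithelium), 16 carried at least 4 genes of the Otos panel, and 39 had neither. In library 2 these numbers were 1, 1 and 69. Below 5 Coch UMIs per 10000 UMIs lay 8 members of library 1, each with at least 2 of these markers, and 1 member of library 2 with fewer. Summed over members, the 9 markers reached 632 and 28.8 CPM in the Lox group, 95.1 and 38.7 in the Kcnk3 group, 87.1 and 31.4 in the Hal group and 2736 and 499.9 in the Otos group. All 9 were seen in the members of library 1, and 6 (Myo7a, Slc17a8, Pou4f3, Sox2, Otog and Tecta) were at 0 in those of library 2. Epyc, which encodes the proteoglycan epiphycan, made up most of the sum in library 1 with 768 UMIs, against 8 UMIs in library 2, and 579 of the 768 came from 3 cells with 3 panel genes. These 8 and 3 cells were singled out after their values were seen.

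**Figure D2:**
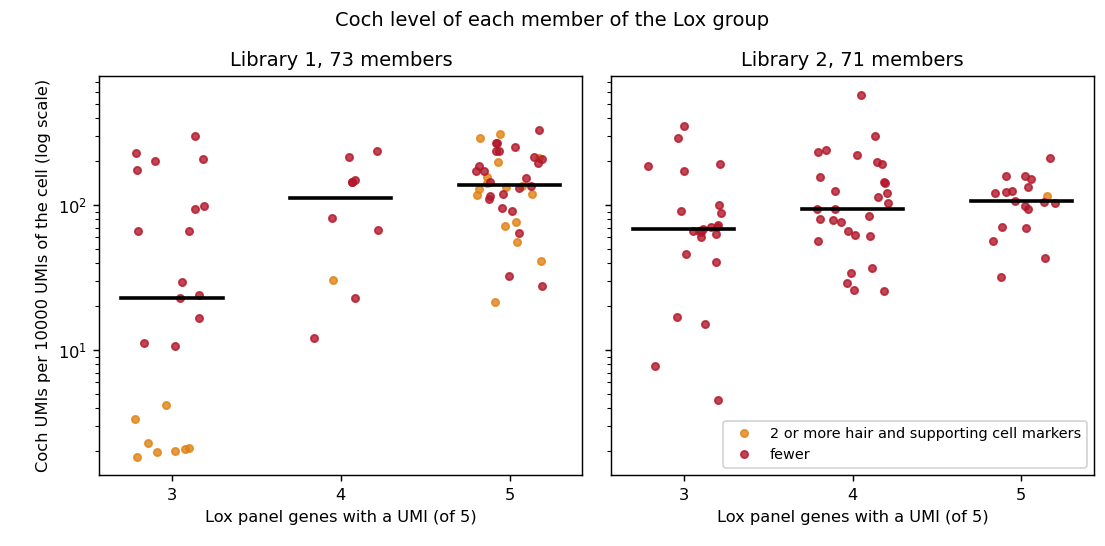
Coch UMIs per 10000 UMIs of each member (log scale) by the number of Lox panel genes seen in it, in library 1 (73 members) and library 2 (71 members); bars are medians and orange points carry at least 2 hair and supporting cell markers. In library 1 the 8 members under 5 Coch UMIs per 10000 all had 3 panel genes and such markers, and in library 2 only 1 member lay under 5.

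For the name fibrocyte, 16 fibrocyte markers were examined. All 16 were seen in members of each library, but also in every other group and in all other cells. Being seen therefore cannot check the name. Their levels summed to 17596 and 15688 CPM in the Lox group, 7066 and 6297 in the Kcnk3 group, 10968 and 8279 in the Hal group and 10769.9 and 16981 in the Otos group, and Coch, itself part of the rule, gave most of the Lox group's sum. Otor, which encodes the secreted cochlear protein otoraplin, had 4813 and 3277 CPM in the Lox group, 2836 and 2237 in the Kcnk3 group, 4070.0 and 2377 in the Hal group and 141 and 78.3 in the Otos group. The genes that chose the Otos group were lower in the Lox group than there, and not all were lowest in the Lox group. Gjb2, a connexin gene of the potassium route, had 291 and 237 CPM in the Lox group, 73.1 and 8.94 in the Kcnk3 group, 18.6 and 15.7 in the Hal group and 1949.8 and 3856 in the Otos group. Gjb6, its partner connexin gene, had 173 and 97.7 CPM in the Lox group, 30.9 and 8.94 in the Kcnk3 group, 11.4 and 3.14 in the Hal group and 872 and 1308 in the Otos group. Both libraries of the Lox group were above both libraries of the Kcnk3 and Hal groups for these connexin genes. At least 4 genes of the Otos panel, which holds both, were seen in 16 and 1 members. The Kcnk3 group had 13 and 3 such cells and the Hal group 2 and 0. The part of such cells in these levels was not tested. Otos had 118 and 168 CPM in the Lox group, 106 and 63.6 in the Kcnk3 group, 97.1 and 65.9 in the Hal group and 715 and 933 in the Otos group. Car3, a carbonic anhydrase gene, had 138 and 35.1 CPM in the Lox group, 116 and 37.8 in the Kcnk3 group, 12.8 and 12.5 in the Hal group and 1255 and 1177 in the Otos group. They are given without a test. Emcn and Flt1, a receptor of vascular endothelial growth factor, are endothelial markers, and the 13 genes of that list were examined. Cldn5 and Ptprb were at 0 in members of each library, Tie1 and Esam had 1 and 0 UMIs each, Pecam1 had 3 and 1, and Vwf had 2 and 1. Egfl7 had 14 and 1 UMIs. The other endothelial markers had more. Eng, a receptor of TGF-beta ligands, had 150.4 and 185 CPM in the Lox group, 87.96 and 115 in the Kcnk3 group, 113 and 78.4 in the Hal group and 19.1 and 20.7 in the Otos group. Flt1 had 108 and 121 UMIs in members, Cdh5 had 43 and 15, Tek had 40 and 16 and Kdr had 27 and 16. Emcn took 4156 of the 4630 endothelial marker UMIs in library 1 and 4037 of 4356 in library 2. The list summed to 2963 and 5456 CPM in the Lox group, 2494 and 3338 in the Kcnk3 group, 1903 and 2622 in the Hal group and 273 and 311 in the Otos group. Markers of fibroblasts summed to 2365 and 2672 CPM in the Lox group and 5547 and 15272 in the Otos group. Leukocyte markers summed to 347 and 57.6 CPM in the Lox group, 305 and 49.7 in the Kcnk3 group and 296 and 68.99 in the Hal group. Red cell markers summed to 12433 and 1851 CPM in the Lox group, 6078 and 9670.1 in the Kcnk3 group and 19652 and 1653 in the Hal group.

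Genes outside the rule were then compared between the Lox group and each of the other groups. Counts were summed per library and group and fitted together with edgeR's quasi-likelihood test, with the library as a block. A call is a Benjamini-Hochberg adjusted p under 0.05 over 9359 genes, and changes are log2 fold changes ± SE of the Lox group over the other group, with 2 libraries in each. The panels were drawn from earlier clusters of these same cells, so a p-value says how far a difference exceeded the spread between libraries, and not that the groups are separate cell types. The 3 comparisons share the sums of the Lox group. Against the Kcnk3 group 112 genes were higher (1.2% of those tested) and 32 lower (0.342%), and 94 of the 112 and 32 of the 32 had the same direction in each library. Against the Hal group 89 were higher (0.951%) and 52 lower (0.556%). Against the Otos group 1056 were higher (11.3%) and 885 lower (9.46%). The calls against the Kcnk3 and Hal groups depended on the model. Without the library block, 1 higher and 1 lower gene were called against the Kcnk3 group, and 11 higher and 9 lower genes against the Hal group. After cells were thinned to 5000 UMIs, 7 higher and 1 lower gene were called against the Kcnk3 group and 10 higher and 6 lower genes against the Hal group.

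A pair of collagen IV genes was higher in the Lox group than in each of the other groups. Col4a3 and Col4a4 encode chains of the basement membrane collagen network and are mutated in Alport syndrome, which joins kidney disease and hearing loss. Col4a3 had 65.9 and 57.6 CPM (103 and 46 UMIs) in the Lox group, 11.9 and 4.97 in the Kcnk3 group, 7.14 and 6.27 in the Hal group and 2.73 and 0 in the Otos group, and both Lox group values lay above every other value. Its log2 fold change was 2.80 ± 0.37 over the Kcnk3 group (adjusted p = 0.00106), 3.14 ± 0.48 over the Hal group (0.00177) and 5.02 ± 0.52 over the Otos group (3.97e-06). Col4a4, its neighbour across the stretch shown above, had 64.6 and 73.9 CPM in the Lox group, 13.1 and 7.95 in the Kcnk3 group, 7.14 and 9.41 in the Hal group and 6.82 and 16.1 in the Otos group. Again the groups did not overlap, with changes over the Kcnk3, Hal and Otos groups of 2.61 ± 0.34 (adjusted p = 0.0013), 2.99 ± 0.44 (0.00177) and 2.89 ± 0.38 (6.35e-05). Both genes were named because of their calls, so the separation of the groups is no further support. The unblocked fit ended both calls against the Kcnk3 group. The third chain of this network, Col4a5, looked up after the others were seen, had only 17 and 3 UMIs in members and was called in no comparison. After thinning to 3000 UMIs per cell, Col4a3 was seen in 10.96% and 12.7% of members and in 3.61% and 1.47% of the Kcnk3 group. In library 1 the pair was carried by members with 4 or 5 panel genes, at 86.6 CPM of Col4a3 against 11.6 in those with 3. In library 2 the levels were 56.99 and 59.99 CPM.

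**Figure D3:**
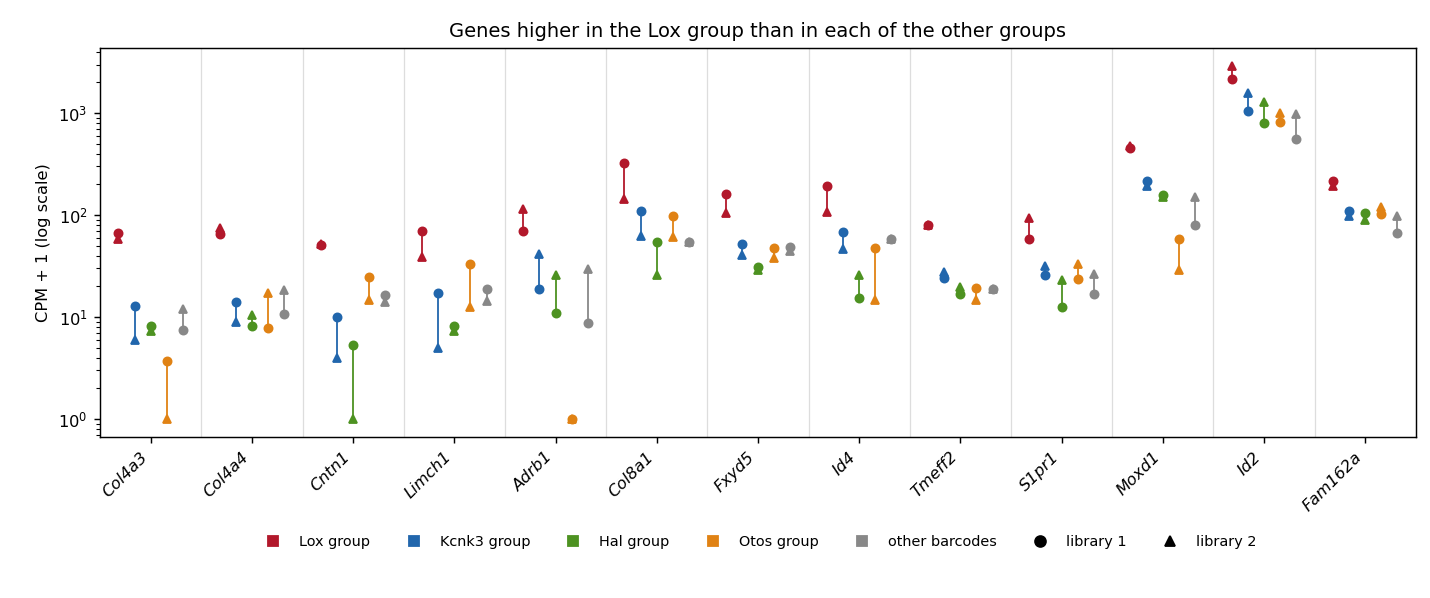
Levels (CPM plus 1, log scale) of 13 genes called higher in the Lox group than in the Kcnk3, Hal and Otos groups, with the other cells last, a circle for library 1 and a triangle for library 2. In each gene the Lox group lies above the other groups within each library, and Adrb1 had no UMI in the Otos group.

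Adrb1, S1pr1 and Cntn1 were also higher than in each of the other 3 groups. Of the 15 tested genes of the integrin and cell adhesion list, 0 were called against the Kcnk3 group (2 had an unadjusted p under 0.05). In the list, 1 gene (Cdh11) was higher than in the Hal group, beside 0.951% of all genes. Against the Otos group 4 were higher and 4 lower, beside 11.3% and 9.46% of all genes. Adrb1, the beta-1 adrenergic receptor gene, had 69.1 and 114 CPM in the Lox group, 17.8 and 40.7 in the Kcnk3 group and 9.99 and 25.1 in the Hal group, and 0 UMIs in the Otos group against 108 and 91 in the Lox group. Against the limit of 3 counts that a count of 0 allows in each library, Adrb1 was at least 33.8-fold and 16.5-fold higher than in the Otos group, and it was 1.69 ± 0.26 higher on the log2 scale than in the Kcnk3 group (adjusted p = 0.00383) and 2.40 ± 0.33 higher than in the Hal group (0.00173). S1pr1, a receptor of sphingosine 1-phosphate, had 57.6 and 92.7 CPM in the Lox group, 24.96 and 30.8 in the Kcnk3 group, 11.4 and 21.95 in the Hal group and 22.5 and 32.2 in the Otos group, with changes over the Kcnk3, Hal and Otos groups of 1.36, 2.13 and 1.49 (adjusted p = 0.00866, 0.00187 and 7.85e-04). Cntn1, the neural adhesion protein contactin 1, had 49.3 and 51.4 CPM in the Lox group, 8.91 and 2.98 in the Kcnk3 group, 4.28 and 0 in the Hal group and 23.9 and 13.8 in the Otos group. Its changes over the Kcnk3, Hal and Otos groups were 2.97, 4.05 and 1.44 (adjusted p = 0.00165, 0.00182 and 0.0129). The Hal group held 3 and 0 UMIs of Cntn1, so the fitted size of that change depends on the prior count. For each of these 3 genes, both Lox group values lay above both values of every other group. They were named because of calls in the same direction in both libraries, so this separation is no further support.

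Id2 and Id4 encode partners that keep basic helix-loop-helix transcription factors off DNA. Id2 was abundant, with 2168 and 2933 CPM in the Lox group, 1040.0 and 1579 in the Kcnk3 group, 807 and 1289 in the Hal group and 821 and 993 in the Otos group, and rose over the Kcnk3, Hal and Otos groups by 0.95, 1.22 and 1.54 (adjusted p = 0.0212, 0.00371 and 5.53e-05). Id4 had 191 and 106 CPM in the Lox group and 14.3 and 25.1 in the Hal group, where the change was largest at 2.98 ± 0.38 (adjusted p = 0.00173). Among matrix and membrane genes, Col8a1, a short-chain network collagen, had 324 and 142 CPM in the Lox group, 109 and 61.6 in the Kcnk3 group and 52.8 and 25.1 in the Hal group, higher by 1.38 and 2.44 (adjusted p = 0.00205 and 5.91e-05). Fxyd5, a regulator of the sodium pump, had 161 and 104 CPM in the Lox group, 51.1 and 39.7 in the Kcnk3 group, 29.98 and 28.2 in the Hal group and 46.3 and 36.9 in the Otos group. Moxd1, a relative of dopamine beta-hydroxylase, had 449.8 and 471 CPM in the Lox group, 215 and 193 in the Kcnk3 group, 156 and 151 in the Hal group and 56.6 and 27.6 in the Otos group, with changes over the Kcnk3, Hal and Otos groups of 1.16, 1.51 and 3.44 (adjusted p = 0.0082, 0.00177 and 1.51e-07). Limch1, Tmeff2 and Fam162a were also higher than in each group, with changes over the Kcnk3 group of 2.39, 1.64 and 0.94 and over the Hal group of 3.02, 2.12 and 0.98. DESeq2 on the same sums did not call Adrb1, S1pr1, Tmeff2, Id4 or Fam162a against the Kcnk3 group, Fam162a against the Hal group, or Cntn1 and Limch1 against the Otos group. Without the library block, Adrb1, S1pr1, Cntn1 and all genes of this paragraph lost their calls against the Kcnk3 group. With thinned cells, Adrb1, S1pr1, Id2, Id4, Moxd1, Tmeff2 and Fam162a lost theirs as well. Against the Hal group, the unblocked fit did not call Adrb1, S1pr1, Id2, Id4, Col8a1, Limch1 or Fam162a. Thinned cells gave no call there for Adrb1, S1pr1, Id4, Fxyd5, Moxd1, Tmeff2 or Fam162a.

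For other genes called higher, much of the level came from 1 library or from few cells. Mgp, the inhibitor of calcification matrix Gla protein, had 378 and 92.7 CPM in the Lox group, 45.8 and 4.97 in the Kcnk3 group, 11.4 and 0 in the Hal group and 192 and 9.21 in the Otos group, and 404 of the 419 UMIs in library 1 members with 3 panel genes came from 3 cells. Members with 4 or 5 panel genes still had 151 and 104 CPM of Mgp, seen in 31 of 50 and 14 of 48 cells. With at least 4 panel genes required, Mgp was called in none of the 3 comparisons. Cldn9, a tight junction gene of the sensory epithelium, had 127 and 5.01 CPM in the Lox group and 8.91 and 0 in the Kcnk3 group, and its library 1 level was 434 CPM in members with 3 panel genes and 9.72 in those with 4 or 5. Its calls against the Kcnk3 and Hal groups ended when 4 panel genes were required. P2rx2, a receptor for ATP mutated in dominant deafness, had 74.9 and 0 CPM in the Lox group and 5.35 and 0.994 in the Kcnk3 group. It had 117 and 0 UMIs in members, and a count of 0 allows up to 3.76 CPM. Kcnj16, a potassium channel gene, had 46.1 and 1.25 CPM in the Lox group and 4.75 and 0 in the Kcnk3 group. Lyz2, the lysozyme gene of macrophages and monocytes, had 122 and 23.8 CPM in the Lox group and 545 and 361 in all other cells, and 167 of its 182 UMIs in library 1 members with 4 or 5 panel genes came from 3 cells. The calls of Kcnj16 and Lyz2 against the Kcnk3 and Hal groups were lost under DESeq2. Fxyd3 reached 11.5 and 111 CPM in the Lox group, and 86 of its 89 UMIs in library 2 came from a single cell. Hair and supporting cell markers, whose sums are given above, moved with Cldn9 and P2rx2 between libraries, and their part in the call of P2rx2 was not tested. Chondrocyte markers also differed between libraries, at 710.3 and 199 CPM in the Lox group and 432 and 212 in the Kcnk3 group. Leaving out members with 2 hair and supporting cell markers or with 4 Otos panel genes, a choice made after seeing the data, gave 59 higher genes against the Kcnk3 group and 57 against the Hal group, and Cldn9 was then called against neither.

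Genes lower in the Lox group formed a shorter list, and none of them was lower than in all 3 other groups. Gas2l3, a linker of actin and microtubules, had 17.9 and 25.1 CPM in the Lox group, 118 and 139 in the Kcnk3 group, 177 and 226 in the Hal group and 6.13 and 18.4 in the Otos group. It fell by 2.62 ± 0.26 on the log2 scale relative to the Kcnk3 group (adjusted p = 1.71e-04) and by 3.32 ± 0.26 relative to the Hal group (1.02e-05), and each library showed it. Dapl1 had 92.8 and 103 CPM in the Lox group, 366 and 299 in the Kcnk3 group, 467 and 439 in the Hal group and 3.41 and 2.30 in the Otos group, with changes of -1.79 ± 0.19 (adjusted p = 1.71e-04) and -2.30 ± 0.19 (1.02e-05) in the same comparisons. Relative to the Otos group, Dapl1 was higher (5.00 ± 0.31, 2.79e-08). Bmp2, a bone morphogenetic protein, had 18.6 and 11.3 CPM in the Lox group, 68.9 and 49.7 in the Kcnk3 group, 88.5 and 62.7 in the Hal group and 12.9 and 4.61 in the Otos group and changed by -2.01 ± 0.28 (adjusted p = 0.00178) and -2.41 ± 0.29 (6.49e-04). Prelp, a leucine-rich proteoglycan that anchors basement membranes, had 41.6 and 45.1 CPM in the Lox group, 112 and 122 in the Kcnk3 group, 111 and 132 in the Hal group and 40.9 and 32.2 in the Otos group and changed by -1.46 ± 0.21 (adjusted p = 0.00222) and -1.56 ± 0.22 (0.00173). Met, the receptor of hepatocyte growth factor, which is linked to deafness, had 36.5 and 48.8 CPM in the Lox group, 99.2 and 135 in the Kcnk3 group and 107 and 100.3 in the Hal group (changes -1.47 and -1.43, adjusted p = 0.00599 and 0.0106). Both calls of Met were lost under DESeq2, without the library block and with thinned cells. Against the Kcnk3 group, the calls of Gas2l3, Bmp2 and Prelp were lost without the block and with thinned cells, and that of Dapl1 with thinned cells. Against the Hal group, the calls of Gas2l3, Bmp2 and Prelp were lost with thinned cells. For Gas2l3, Dapl1, Bmp2, Prelp and Met, both libraries of the Lox group lay below both libraries of the Kcnk3 and Hal groups. These genes were named because of their calls, so this separation is no further support.

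**Figure D4:**
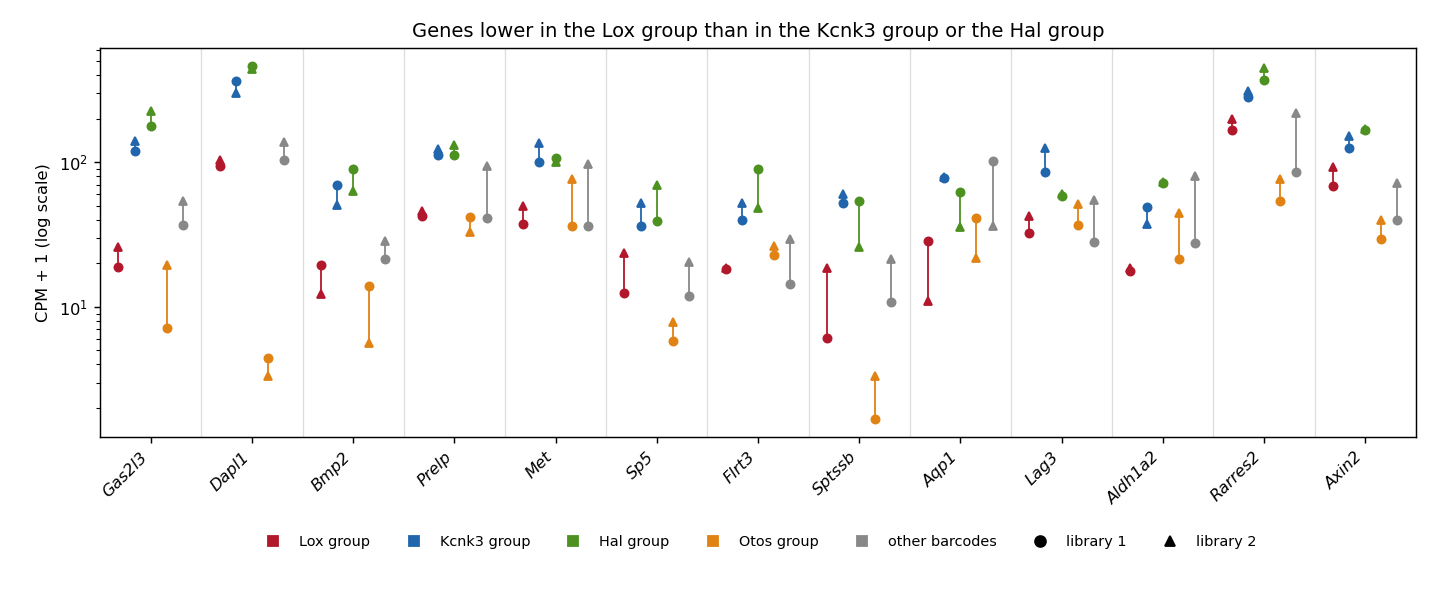
Levels (CPM plus 1, log scale) of 13 genes called lower in the Lox group than in the Kcnk3 or the Hal group, drawn by group with a circle for library 1 and a triangle for library 2, the other cells last. Gas2l3, Dapl1, Bmp2, Prelp and Met lie lower in the Lox group than in both of those groups in each library.

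Some genes were lower against the Kcnk3 or the Hal group alone, and Axin2 was called lower against both. Aqp1, a water channel, had 27.5 and 10.02 CPM in the Lox group and 76.7 and 78.5 in the Kcnk3 group (-2.07 ± 0.31, adjusted p = 0.00272), and Lag3 had 31.4 and 41.3 CPM in the Lox group and 84.4 and 125 in the Kcnk3 group (-1.53 ± 0.22, 0.00236). Tbx18, a T-box factor of the otic mesenchyme, had 186 and 159 CPM in the Lox group and 343 and 339.8 in the Kcnk3 group (-1.01 ± 0.21, 0.0245), a call lost under DESeq2, without the library block and with thinned cells. Against the Hal group, Aldh1a2, which makes retinoic acid, had 16.6 and 17.5 CPM in the Lox group and 71.4 and 72.1 in the Hal group (-2.16 ± 0.34, 0.0033), and Rarres2, a retinoid-induced chemoattractant, had 167 and 198 CPM in the Lox group and 371 and 452 in the Hal group (-1.26 ± 0.18, 0.00177).  Axin2, a target and brake of Wnt signalling, had 67.8 and 91.4 CPM in the Lox group and 167 and 169 in the Hal group (-1.20 ± 0.20, 0.00543). Of these calls, those of Aqp1, Lag3, Rarres2 and Axin2 were lost without the library block and with thinned cells. That of Aldh1a2 was lost with thinned cells. Whether a gene differed between these comparisons was not tested.

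Gene lists chosen with earlier results known were counted within each comparison, beside all genes tested, whose median change was 0.00 against the Kcnk3 group, 0.01 against the Hal group and -0.01 against the Otos group. Of 10 network and transmembrane collagens tested, 4 were higher than in the Kcnk3 group (Col18a1, Col4a3, Col4a4 and Col8a1), 3 than in the Hal group (the same without Col18a1), and 4 higher and 1 lower than in the Otos group, with medians of 0.96, 0.82 and 1.58, beside 1.2%, 0.951% and 11.3% of all genes called higher. Of 12 fibrillar and associated collagens, Col11a2, Col9a1 and Col11a1 were higher than in the Kcnk3 group, and Col9a1 and Col11a2 than in the Hal group (medians 0.77 and 1.27). Col9a1 had 76.8 and 23.8 CPM in the Lox group and 24.4 and 9.94 in the Kcnk3 group, and none of the 3 was called once 4 panel genes were required. DESeq2 called 1 of the 12 against the Kcnk3 group and 0 against the Hal group. Against the Otos group the list had 2 higher (Col5a1 and Col27a1) and 2 lower members (Col9a3 and Col11a2), so Col11a2 was higher than in the Kcnk3 and Hal groups and lower than in the Otos group. The call of Col11a2 against the Otos group was lost under DESeq2, with the stricter cell filter and with trimmed members, but not with 4 panel genes. Of 15 lysyl oxidase and elastic fibre genes none was called against the Kcnk3 group by edgeR or DESeq2 (4 had an unadjusted p under 0.05). Fbln5 and Mfap2 were higher than in the Hal group, where DESeq2 called 1 of the 15 and not Fbln5. The call of Fbln5 was also lost without the block and with 4 panel genes. Against the Otos group 6 were higher (Emilin2, Efemp1, Mfap2, Emilin1, Efemp2 and Loxl1, median 0.67). Mfap2, a microfibril protein, had 216 and 138 CPM in the Lox group, 218 and 142 in the Kcnk3 group and 72.8 and 62.7 in the Hal group. Of 10 matricellular genes, Spp1, Sparcl1 and Sparc were higher than in the Hal group (median 1.16). None was called against the Kcnk3 group by edgeR, where 5 had an unadjusted p under 0.05, and DESeq2 called 1. Spp1, osteopontin, had 1013 and 357 CPM in the Lox group and 22.8 and 40.8 in the Hal group, and its call was lost with the stricter cell filter, without the block and with thinned cells. Of 9 basement membrane genes outside the collagens none was called by edgeR or DESeq2 against the Kcnk3 group (0 with an unadjusted p under 0.05) or the Hal group (3), and edgeR called 4 higher than in the Otos group (Lama4, Lamc3, Lamc1 and Hspg2), where DESeq2 and thinned cells gave 0. Of 9 insulin-like growth factor genes, Igfbp6 and Igfbp5 were higher than in the Kcnk3 group and Igfbp5 than in the Hal group. Igfbp5 had 1562 and 2107 CPM in the Lox group, 719.7 and 483 in the Kcnk3 group and 364 and 479.8 in the Hal group, with changes of 1.53 and 2.03 (adjusted p = 0.0247 and 0.00518). Both calls of Igfbp5 were lost with the stricter cell filter and without the library block, and the call against the Kcnk3 group also with 4 panel genes. The call of Igfbp6 was lost under DESeq2, without the block and with thinned cells. Of 14 Wnt genes, Wif1, a secreted Wnt inhibitor, was higher (99.8 and 145 CPM in the Lox group, 54.1 and 68.6 in the Kcnk3 group) and Axin2 lower than in the Kcnk3 group. The call of Wif1 was lost under DESeq2, with the stricter cell filter, without the block and with thinned cells. The call of Axin2 there was kept under 2 of 10 alternatives. Of 28 antioxidant genes, Sod3, the secreted superoxide dismutase, was higher than in the Kcnk3 group with 114 and 73.9 CPM in the Lox group and 36.3 and 17.9 in the Kcnk3 group (1.75 ± 0.27, adjusted p = 0.00315).

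Of 31 tested deafness genes of the lateral wall and matrix, 10 were higher and 1 lower than in the Kcnk3 group, beside 1.2% and 0.342% of all genes. Against the Hal group 5 were higher and 1 lower, beside 0.951% and 0.556%. Against the Otos group 6 were higher and 6 lower, beside 11.3% and 9.46%. The medians were 0.91, 1.53 and -0.22. DESeq2 called 4 higher and 0 lower against the Kcnk3 group and 3 and 0 against the Hal group. Against the Kcnk3 group, 2 of 27 were higher with 4 panel genes, 4 of 27 with trimmed members and 1 of 16 with thinned cells. Without the library block, 0 of 31 were called higher there. Of the 10, Col4a3 and Col4a4 were described above, Col11a1, Col11a2 and Col9a1 are cartilage collagens, and Cldn14, Cldn9, P2rx2, Ildr1 and Sox10 are genes of epithelial or glial cells, seen almost only in library 1. Cldn14 and Ildr1 had 39 and 35 UMIs in members of library 1 and 0 in those of library 2. Pou3f4, the X-linked deafness transcription factor of otic mesenchyme, was called in no comparison, at 235 and 214 CPM in the Lox group, 327 and 277 in the Kcnk3 group, 273 and 207 in the Hal group and 221 and 258 in the Otos group (changes -0.45, -0.19 and -0.02, SE 0.19, 0.20 and 0.20). Slc12a2, the sodium, potassium and chloride cotransporter gene, was also uncalled, with 49.3 and 52.6 CPM in the Lox group and 42.9 and 108 in the Otos group. Wfs1, the wolframin gene, was lower than in the Otos group (15.997 and 17.5 CPM in the Lox group, 31.3 and 66.8 in the Otos group, -1.33 ± 0.38, adjusted p = 0.0203), a call lost under DESeq2, without the block and with the stricter cell filter. Crym, which encodes the thyroid hormone-binding mu-crystallin, was higher (62.7 and 68.9 CPM in the Lox group and 13.6 and 2.30 in the Otos group, 2.75 ± 0.36, 5.95e-05).

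More genes were called against the Otos group than against the other groups. In the Otos group 42 of 87 cells in library 1 and 12 of 31 in library 2 carried at least 2 genes of the hair and supporting cell list, the marginal and intermediate cell list or Fabp7. Without these cells, a choice made after seeing the data, 915 genes were higher and 869 lower in the Lox group. Emilin2, which binds elastic microfibrils, had 6320.1 and 4352 CPM in the Lox group, 4244 and 3810.2 in the Kcnk3 group, 5578 and 3914 in the Hal group and 137 and 122 in the Otos group, a change of 5.42 ± 0.26 over the Otos group (adjusted p = 3.43e-09). Otor was higher by 5.27 ± 0.26 (3.43e-09), and neither gene was called against the Kcnk3 or Hal group. Lypd1, a modulator of nicotinic receptors, had 175 and 217 CPM in the Lox group and 2.04 and 2.30 in the Otos group, and Flt1 had 69.1 and 152 CPM in the Lox group and 2.73 and 2.30 in the Otos group (changes 6.45 and 5.17, adjusted p = 3.43e-09 and 1.51e-07). On the lower side, Scrg1 had 3.84 and 2.51 CPM in the Lox group and 111 and 212 in the Otos group. Slc6a7, a proline transporter, had 3.20 and 0 CPM in the Lox group and 42.3 and 82.9 in the Otos group, and Ppargc1a, the coactivator of mitochondrial biogenesis, had 10.2 and 3.76 CPM in the Lox group and 99.5 and 157 in the Otos group. Lypd1 had 3 and 1 UMIs in the Otos group, so its fitted size depends on the prior count. The changes of Scrg1, Slc6a7 and Ppargc1a were -5.34, -4.62 and -3.94 (adjusted p = 7.05e-06, 1.58e-04 and 3.30e-04).

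Genes of energy metabolism were lower than in the Otos group. Of 50 nuclear oxidative phosphorylation genes, 48 were lower than in the Otos group and none was higher, with a median change of -1.22, beside 9.46% of all genes called lower. None was called against the Kcnk3 or Hal group by edgeR or DESeq2, with an unadjusted p under 0.05 for 3 and 2 of the 50 (medians 0.12 and 0.14). DESeq2 called 47 of them lower than in the Otos group. Cox5a, a cytochrome oxidase subunit, had 151 and 106 CPM in the Lox group, 119 and 66.6 in the Kcnk3 group, 78.5 and 50.2 in the Hal group and 580.0 and 765 in the Otos group. Cycs, cytochrome c, had 108 and 109 CPM in the Lox group, 76.7 and 65.6 in the Kcnk3 group, 64.2 and 78.4 in the Hal group and 414 and 721 in the Otos group. Mitochondrially encoded UMIs took a median of 2.76% and 2.94% per member and 5.17% and 7.42% per cell of the Otos group. Of 17 glycolysis genes, 14 were lower than in the Otos group (median -1.60), among them Pfkp, with 3.84 and 5.01 CPM in the Lox group and 22.5 and 18.4 in the Otos group, and Hk2, with 8.96 and 2.51 CPM in the Lox group and 35.4 and 13.8 in the Otos group. DESeq2 called 11 of the 17 and neither Pfkp nor Hk2, and the call of Hk2 was also lost without the library block and with the stricter cell filter. Aldoc, named after its value was seen, was the only 1 of the 17 called against the Hal group, where it was higher, and DESeq2 did not call it. None was called against the Kcnk3 group by edgeR or DESeq2 (3 with an unadjusted p under 0.05). Atp1b1, a subunit of the sodium pump, had 253 and 127 CPM in the Lox group and 1516 and 2437 in the Otos group (-3.34 ± 0.46, adjusted p = 0.00292), and its call was lost with the stricter cell filter. Of 28 potassium, chloride and bicarbonate transport genes, 7 were lower and 3 higher than in the Otos group, beside 9.46% and 11.3% of all genes, so the share called higher was near that of all genes. Kcnj8, a channel sensitive to ATP, was higher with 98.5 and 60.1 CPM in the Lox group and 10.2 and 4.61 in the Otos group. Slc4a11, a transporter linked to corneal and hearing disease, was higher with 69.1 and 143 CPM in the Lox group and 2.04 and 27.6 in the Otos group. The call of Slc4a11 was lost without the library block, with the stricter cell filter and without the Otos group cells that carried other epithelial genes. Of 28 antioxidant and metal-binding genes, 9 were lower than in the Otos group and Sepp1 was higher. Among the 9, Mt1, a metallothionein, had 90.2 and 160.3 CPM in the Lox group and 449 and 1668 in the Otos group.

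**Figure D5:**
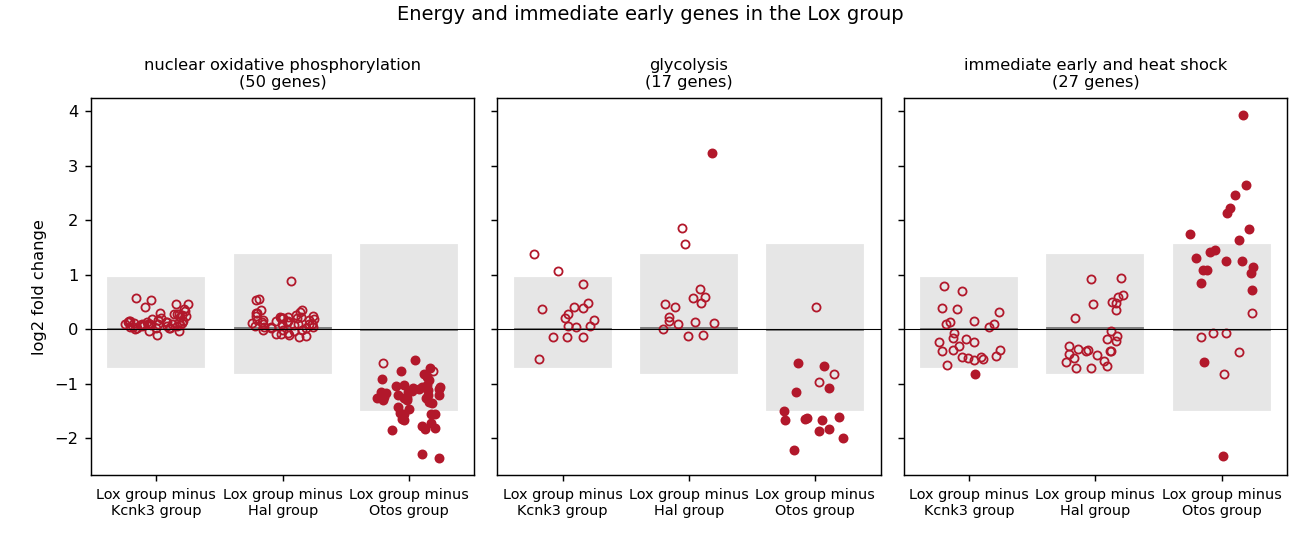
Log2 fold changes of the Lox group over the Kcnk3, Hal and Otos groups for genes of 3 lists, with filled points for an adjusted p under 0.05, a grey box from the 5th to the 95th percentile of all 9359 genes and a grey line at their median. Of 50 oxidative phosphorylation genes 48 were called lower against the Otos group and 0 against the Kcnk3 or Hal group.

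Immediate early genes, which respond quickly to stimulation and to handling of tissue, were higher than in the Otos group. Of 27 immediate early and heat shock genes, 19 were higher and 2 lower than in the Otos group (median 1.14), beside 11.3% and 9.46% of all genes. Egr2 was lower than in the Kcnk3 group (adjusted p = 0.0487), but no gene of the list was lower there under 9 of 10 alternatives, DESeq2 among them, and none was called against the Hal group (edgeR and DESeq2; 11 with an unadjusted p under 0.05). Klf2, a transcription factor, had 2842 and 2975 CPM in the Lox group, 3273 and 3435 in the Kcnk3 group, 3449 and 2898 in the Hal group and 220.1 and 179.7 in the Otos group (3.92 ± 0.24 over the Otos group, adjusted p = 2.79e-08). Fos had 4788 and 5279 CPM in the Lox group and 1625 and 2221 in the Otos group, and Jun had 2017 and 1991 CPM in the Lox group and 808 and 887 in the Otos group. The 2 lower ones, Hspa1b and Hsp90aa1, are heat shock genes, and DESeq2 called neither. Hspa1b had 5.12 and 2.51 CPM in the Lox group and 19.8 and 27.6 in the Otos group, and Hsp90aa1 had 243 and 223 CPM in the Lox group and 442 and 297 in the Otos group. The call of Hsp90aa1 (adjusted p = 0.0468) was kept under 4 of 10 alternatives, and that of Hspa1b was also lost with the stricter cell filter. Among transcription factors of otic mesenchyme, 6 of 25 were higher than in the Otos group (beside 11.3% of all genes; Irx5, Foxp1, Irx3, Foxf2, Osr1 and Klf4) and 4 lower (beside 9.46%; Zic1, Osr2, Sox9 and Tbx2). Irx5 had 793 and 740.2 CPM in the Lox group and 187 and 253 in the Otos group, and Foxp1 had 259.8 and 271 CPM in the Lox group and 103 and 78.3 in the Otos group. Of 14 retinoid genes, 5 were higher than in the Otos group (beside 11.3% of all genes), among them Stra6, Rxrg and Rarres2. Stra6, a retinol uptake receptor, had 31.4 and 32.6 CPM in the Lox group and 2.73 and 2.30 in the Otos group. Bambi, a decoy receptor of the BMP and TGF-beta pathways, had 344 and 516 CPM in the Lox group and 36.8 and 34.6 in the Otos group (3.57 ± 0.23, adjusted p = 5.43e-08). Ptgds, the prostaglandin D synthase and carrier of retinoids, was lower, with 419.8 and 1567 CPM in the Lox group and 4624 and 17834 in the Otos group (-3.44 ± 0.76, adjusted p = 0.0456), and lost its call with another normalization, with no filter on low counts, without the library block and with a stricter cell filter.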

How the data were processed

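The deposited files hold UMI counts per gene and barcode, which the authors made with Cell Ranger 2.1.0 and the mm10 build, per the submitters' processing notes. The choice of barcodes before deposit was not stated there. A barcode was kept when it held 300 or more genes and no more than 20% of its UMIs came from mitochondrial genes, and doublets were marked with Scrublet (scanpy 1.11.5). The rule for members and the gene lists were chosen with earlier results of these data known.

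Counts of the Lox, Kcnk3, Hal and Otos groups were summed per library, giving 8 sums. All were fitted in 1 model with edgeR 4.0.16 in R 4.3.3 (TMM, filterByExpr with a minimum count of 10, robust quasi-likelihood test), with the library as a block, since both libraries gave every group. Adjusted p-values are Benjamini-Hochberg over 9359 genes. The 21 genes of the rules were not tested. The fit was tested on simulated data with genes changed in the Lox group. Log2 changes of 2 were recovered for 89.8%, 84.7% and 88.8% of genes against the Kcnk3, Hal and Otos groups. Log2 changes of 1 were recovered for 53.2%, 34.0% and 38.3%, so a gene that was not called may still differ. Named genes are the largest changes at 50 CPM or more in the higher group with the same direction in both libraries, up to 2 genes per direction of each list at 20 CPM or more, genes of the rules and main deafness genes, and others are said to have been chosen after their values were seen. The fit was repeated with 4 panel genes, a stricter cell filter, thinned cells, no low count filter, other size factors, DESeq2 1.42.0 and no block. Some named genes are not reported here. Intervals and limits on a count of 0 cover counting error only.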

Additional observations from a re-analysis of the deposited data

How the results depend on the processing

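Counts of called genes against the Kcnk3 and Hal groups depended on the model. Against the Kcnk3 group (112 higher, 32 lower), DESeq2 called 22 and 8, the fit with no replicate block 1 and 1, and cells thinned to 5000 UMIs 7 and 1. Requiring 4 panel genes gave 60 higher, leaving out members with supporting cell or Otos panel genes 59 higher, and trimming the Otos group 57 lower. Against the Hal group (89 higher, 52 lower), DESeq2 called 34 and 22, the unblocked fit 11 and 9, and thinned cells 10 and 6. Requiring 4 panel genes gave 58 higher, and the trimmed members gave 57 higher and 33 lower. Against the Otos group (1056 higher, 885 lower), DESeq2 called 562 and 415, thinned cells 573 and 584, and the unblocked fit 542 lower. Of the genes called by DESeq2, 21 of 22 and 31 of 34 higher genes against the Kcnk3 and Hal groups were also called by edgeR with the block. Thinning left 4512 genes to test. The causes of these shifts in the counts, with thinned cells or otherwise, were not tested. The 2 trimmed sets were chosen after seeing the data. Direction turned against the Kcnk3 group for Fxyd3 (-0.054 with 4 panel genes, -0.24 with trimmed members), Kcnj16 (-0.0235 with 4 panel genes) and Lyz2 (-0.16 with trimmed members), and against the Hal group for Kcnj16 (-0.12 with 4 panel genes). The mean share of members, 8.25% of cells, ran from 5.48% to 11.02% when either library was left out, and was 5.605% with 4 panel genes. With either library left out, named genes have a log2 ratio with no test. An alternative restricted to genes outside the earlier clustering was not run. Depth limits library 2, where a count of 0 in members allows up to 3.76 CPM.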
